A study of Mus musculus with 7 samples.

Results

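The inhibitory neuron identity genes are the 8 genes Dlx1, Dlx2, Dlx5, Dlx6, Gad1, Gad2, Slc32a1 and Lhx6, taken from the deposited gene counts by symbol. They are 8 of 46333 genes in the tables, and all 8 passed the filter on low counts that left 21542 genes for testing. The libraries were made from neurons of adult female mice whose il4ra gene, encoding the alpha chain of the interleukin-4 receptor, carried loxP-flanked (fl/fl) alleles in both groups. The cre+ group (n = 3 mice, labelled SynCre +) also carried Syn cre, a Cre recombinase transgene driven by the promoter of the neuronal gene synapsin 1, on a C57Bl/6 background, and the cre- group (n = 4 mice, labelled SynCre -) were littermates without Cre. Whole brains were dissociated and non-neuronal cells were depleted with magnetic beads, so the isolate was enriched for neurons rather than sorted on a neuronal marker. The comparison asks whether transcripts that mark inhibitory neurons differed between neurons with and without the receptor.

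Inhibitory neurons release gamma-aminobutyric acid (GABA). In the embryonic forebrain the DLX homeodomain transcription factors, encoded by neighbouring gene pairs, direct progenitors of the ganglionic eminences toward the GABAergic fate, and LHX6, a LIM homeodomain factor, acts after them in the interneurons of the medial ganglionic eminence. In the adult, GAD67 (encoded by Gad1) and GAD65 (encoded by Gad2) make GABA from glutamate and the vesicular GABA transporter VGAT (encoded by Slc32a1) loads it into synaptic vesicles, while Dlx genes also stay active in the neuroblasts of the subventricular zone and olfactory bulb.

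The libraries held 68213223 to 94376841 counts and no pair held the same library. Levels are given in CPM, which are counts scaled to the library total multiplied by the TMM factor that edgeR gave the library. These factors were 0.938, 0.974 and 0.951 in cre+ and 0.981, 1.073, 1.055 and 1.036 in cre- libraries. Il4ra was at 29.5, 28.7 and 24.4 CPM with Cre and at 20.03, 23.2, 29.6 and 22.4 CPM without it. The deleted exons 7 to 9 make up 6.34% of its transcript, so this gene-level value does not check the genotype. Neuronal transcripts were present in each library, and so were transcripts of other cells. The study's methods assessed neuronal purity by flow cytometry and describe the cells as highly enriched, which is a share of cells and not of RNA. The summed level of 12 endothelial genes was 13267 to 19603 CPM in cre+ and 8494 to 12043 CPM in cre- libraries, none of the 12 was at 0, and DESeq2 called 9 of 12 higher in cre+. Over all genes tested by edgeR, DESeq2 called 5.08% higher. The summed level of 15 pan-neuronal genes was 1171 to 2412 CPM in cre+ and 2350 to 4166 CPM in cre- libraries. The library cre+ replicate 1 stood apart, with the highest endothelial and the lowest pan-neuronal sum of the 7. Without it DESeq2 called 3 of the 12 endothelial genes higher in cre+ and 1 of the 15 pan-neuronal genes lower. Over all genes DESeq2 then called 591 higher and 512 lower. In the same fit it called higher 5 of 10 mural, 3 of 6 meningeal fibroblast, 4 of 9 astrocyte, 3 of 7 oligodendrocyte and 0 of 7 microglia genes. Their median edgeR log2 fold changes were 0.77, 1.30, 0.97, 0.97 and 0.54, against 0.40 for the endothelial genes. Fewer inhibitory neurons in an isolate and less of a transcript per inhibitory neuron cannot be told apart in such bulk libraries.

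Of the 8 genes, 7 had a lower mean in cre+ libraries and 1, Lhx6, a higher one. The cre+ mean was 54.5% of the cre- mean for Dlx6, 64.3% for Gad1, 67.7% for Dlx1, 68.1% for Gad2, 72.6% for Slc32a1, 77.0% for Dlx2, 85.5% for Dlx5 and 122.8% for Lhx6. In edgeR's quasi-likelihood test with Benjamini-Hochberg adjustment over all genes tested, 0 of 8 passed 0.05, against 0.0% of all genes in either direction, and the lowest adjusted p of any gene was 0.0939. At an unadjusted p below 0.05 the same test gave 5 of 8 lower in cre+ and 0 higher, beside 9.75% of all genes lower and 10.2% higher. DESeq2, the test named in the study's methods, called Dlx1, Dlx6 and Gad2 lower (3 of 8, beside 4.15% of all genes tested by edgeR and 5.48% of those that DESeq2 gave an adjusted p) and 0 higher (beside 5.08%). Without cre+ replicate 1, DESeq2 called 2 of the 8 lower, Dlx1 and Dlx6, beside 512 genes lower in all, where edgeR tested 22608 genes. Without that library the edgeR log2 fold changes were -0.45 for Dlx1, -0.28 for Dlx2, -0.09 for Dlx5, -0.85 for Dlx6, -0.52 for Gad1, -0.40 for Gad2, -0.32 for Slc32a1 and 0.29 for Lhx6, with a median of -0.36. The median log2 fold change (cre+ minus cre-) of the 8 genes was -0.51 and that of all genes tested was -0.04.

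**Figure D1:**
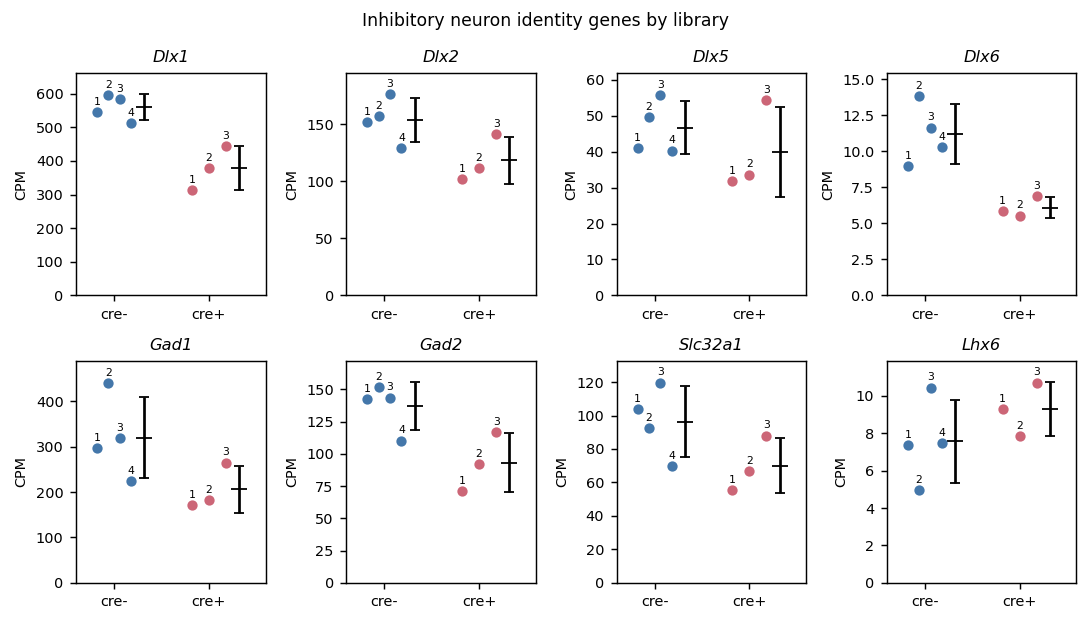
CPM of each gene in the 4 cre- (blue) and 3 cre+ (red) libraries, numbered by replicate, with the group mean and SD in black on a linear axis from 0. For Dlx1 and Dlx6 each cre+ library lies below each cre- library, whereas the other 6 genes overlap.

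Dlx1 and Dlx2 lie on chromosome 2 (GRCm39 chr2:71358457-71364325, plus strand, and chr2:71373752-71377098, minus strand) with 9426 bases between them, in the converging arrangement typical of the Dlx pairs. Dlx1 was measured at 313, 378 and 444 CPM in cre+ and at 545, 596, 584 and 513 CPM in cre- libraries. The groups did not overlap, as for Dlx6 and for 0 other of the 8 genes. Over all genes tested, 9.72% had all cre+ libraries below and 8.94% all cre+ libraries above the cre- libraries. Dlx1 averaged 378.6 CPM ± 65.5 (SD, n = 3) against 559.5 CPM ± 38.0 (SD, n = 4). In edgeR its log2 fold change was -0.56 ± 0.14 (SE; adjusted p = 0.0997), and DESeq2 gave -0.56 ± 0.15 (adjusted p = 0.0042). The DESeq2 call was made with any 1 of the 7 libraries left out, at adjusted p from 0.000463 to 0.0455, and without cre+ replicate 1 the log2 fold change was -0.44 (adjusted p = 0.0328).

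Dlx1as, a noncoding gene on the opposite strand, shares 3251 exon bases with Dlx1, 60.2% of its 5396, and since no source used here gives the strand setting of the counting, the counts of the pair may not be separate. Dlx1as had 89.1, 90.1 and 141.7 CPM in cre+ and 151, 133, 167 and 132 CPM in cre- libraries. Its log2 fold change was -0.45 ± 0.18 and it passed neither test (adjusted p = 0.217 in edgeR and 0.122 in DESeq2).

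Dlx2, the other gene of this pair, had 102, 112 and 141 CPM in cre+ and 152, 157, 176.5 and 129 CPM in cre- libraries. The groups overlapped, since cre+ replicate 3 was above cre- replicate 4. At a log2 fold change of -0.38 ± 0.15, neither test called it (adjusted p = 0.203 in edgeR and 0.114 in DESeq2). Without cre+ replicate 3, the highest cre+ library for each of the 8 genes, DESeq2 called Dlx2 lower (log2 fold change -0.51, adjusted p = 0.0341). This was 1 of the 7 fits without 1 library, and the rest did not call Dlx2 (DESeq2 adjusted p from 0.0576 to 0.425). The Dlx1 to Dlx2 ratio, in CPM per kb of exon, was 1.63, 1.79 and 1.67 in cre+ and 1.90, 2.01, 1.75 and 2.10 in cre- libraries, with overlap at 1 library of each group.

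The sequence before the start of Dlx2 is shown as the Dlx window that lies almost wholly outside annotated exons, and that of Lhx6 because it was the 1 gene with a higher mean in cre+. Of the 8 genes, 6 have RefSeq promoter entries (table build GRCm38.p6, placed here by exact match on GRCm39), and Dlx5 and Dlx6 have none. The windows of 250 bases end just before a RefSeq start, and those of the other genes are not printed since more than 30 of their bases lie in annotated exons. The capitals mark CACGTG, an E-box whose letters are the same on both strands and which was picked after the sequences were seen. It is found in 6.02% of the 32851 promoters in the table.
Dlx2, chr2:71377099-71377348, minus strand: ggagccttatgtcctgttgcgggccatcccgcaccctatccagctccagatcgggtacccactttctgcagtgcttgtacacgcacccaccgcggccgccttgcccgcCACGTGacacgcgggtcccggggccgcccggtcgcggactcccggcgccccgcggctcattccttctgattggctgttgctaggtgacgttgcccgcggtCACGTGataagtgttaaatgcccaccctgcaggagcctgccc
Lhx6, second listed start, chr2:35994546-35994795, minus strand: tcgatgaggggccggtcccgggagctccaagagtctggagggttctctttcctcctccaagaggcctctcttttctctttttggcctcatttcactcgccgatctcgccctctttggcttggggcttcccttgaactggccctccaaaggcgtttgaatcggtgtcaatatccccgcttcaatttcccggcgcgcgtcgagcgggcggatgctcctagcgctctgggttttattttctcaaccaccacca
The Dlx2 window holds CACGTG in 2 places, has a GC content of 66.4% and 24 CpG dinucleotides, against medians of 52.4% and 6 over the table. The printed Lhx6 window holds none, with a GC content of 57.2% and 17 CpG dinucleotides. It is 1 of 3 Lhx6 windows, and they differ. The first has 61.6% GC and 14 CpG dinucleotides, and the third, with 0 bases in annotated exons but not printed, has 46.0% and 7. TAATTA, a core read by many homeodomain proteins and also the same on both strands, is in 0 of the 8 windows of these 6 genes and in 4.84% of all windows.

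Dlx5 and Dlx6 form a second pair on chromosome 6 (chr6:6877805-6882085, minus strand, and chr6:6863334-6868568, plus strand) with 9236 bases between them. Dlx6 had 5.87, 5.55 and 6.89 CPM in cre+ and 8.98, 13.9, 11.65 and 10.3 CPM in cre- libraries. As for Dlx1, no cre+ library reached a cre- library. Dlx6 averaged 6.10 CPM ± 0.702 (SD, n = 3) against 11.2 CPM ± 2.08 (SD, n = 4), from 409 to 1166 counts a library. Its log2 fold change, -0.88 ± 0.20, was the lowest of the 8 genes (adjusted p = 0.0978 in edgeR), and DESeq2 gave -0.87 ± 0.21 (adjusted p = 0.0017). DESeq2 called Dlx6 with any 1 library left out, at adjusted p from 0.000892 to 0.0353, and at -0.84 without cre+ replicate 1 (adjusted p = 0.0303).

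Dlx5 had 31.9, 33.6 and 54.3 CPM in cre+ and 41.0, 49.7, 55.8 and 40.3 CPM in cre- libraries. Replicates 1 and 2 of cre+ lay below the cre- libraries, while replicate 3 lay above 3 of the 4. Dlx5 had a log2 fold change of -0.23 ± 0.21, not called by either test (adjusted p = 0.592 in edgeR and 0.554 in DESeq2). In edgeR this value was -0.09, -0.11 and -0.13 when cre+ replicate 1, cre+ replicate 2 or cre- replicate 3 was left out, and -0.51 when cre+ replicate 3 was. The Dlx5 to Dlx6 ratio, in CPM per kb, was 6.51, 7.25 and 9.44 in cre+ and 5.47, 4.29, 5.74 and 4.69 in cre- libraries. The neighbours thus stood in a different proportion in the groups, without overlap, a comparison picked after the values were seen and given without a test.

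Dlx6os1, the noncoding transcript also known as Evf2, runs opposite to Dlx6 and shares 0 of its exon bases. It had 125, 194 and 209.6 CPM in cre+ and 226, 248, 269 and 248 CPM in cre- libraries, without overlap. Its log2 fold change was -0.49 ± 0.17 (adjusted p = 0.178 in edgeR and 0.0697 in DESeq2).

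Lhx6 (chr2:35971965-35995420, minus strand) had 9.31, 7.84 and 10.7 CPM in cre+ and 7.38, 4.97, 10.4 and 7.46 CPM in cre- libraries. The cre+ values sat inside or just above the cre- range, and the spread of cre- was a CV of 29.6%. Lhx6 had a log2 fold change of 0.30 ± 0.26 (adjusted p = 0.574 in edgeR and 0.484 in DESeq2). It was 0.14 when cre- replicate 2 and 0.18 when cre+ replicate 3 was left out, and 0.49 when cre- replicate 3 was. Whether Lhx6 differed in its response from the other 7 genes was not tested.

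Gad1 (chr2:70383416-70432358, plus strand) lies 926098 bases before Dlx1 on the same chromosome. It had 171, 181 and 265 CPM in cre+ and 298, 439, 319.5 and 223 CPM in cre- libraries. The lowest cre- library, replicate 4, was below the highest cre+ library, replicate 3. Its group averages were 205.9 CPM ± 51.4 (SD, n = 3) for cre+ and 319.95 CPM ± 89.7 (SD, n = 4) for cre-, at a log2 fold change of -0.64 ± 0.24 (adjusted p = 0.197 in edgeR and 0.0750 in DESeq2). DESeq2 called Gad1 lower when either of those libraries was left out (adjusted p = 0.0192 without cre+ replicate 3 and 0.0125 without cre- replicate 4). Leaving out either library removes a value that narrows the difference. These were 2 of the 7 fits without 1 library, and the rest did not call Gad1 (DESeq2 adjusted p from 0.0888 to 0.291).

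Gad2 (chr2:22512217-22583886, plus strand) had 71.0, 92.05 and 117 CPM in cre+ and 142, 152, 144 and 110.2 CPM in cre- libraries. Again the overlap came from cre+ replicate 3 and cre- replicate 4. For Gad2 edgeR gave -0.56 ± 0.18 as log2 fold change (adjusted p = 0.153), and DESeq2, which called it, gave -0.55 ± 0.20 (adjusted p = 0.0476). That call was lost when any of cre+ replicate 1, cre+ replicate 2, cre- replicate 1, cre- replicate 2 or cre- replicate 3 was left out (adjusted p = 0.227, 0.182, 0.0900, 0.162 and 0.137). Gad1 and Gad2 kept a similar proportion, with a Gad1 to Gad2 ratio in CPM per kb averaging 1.39 ± 0.141 (SD, n = 3) with Cre and 1.45 ± 0.2497 (SD, n = 4) without it.

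Slc32a1 (chr2:158452687-158457668, plus strand) had 55.5, 66.6 and 88.0 CPM in cre+ and 103.8, 92.3, 119.7 and 69.9 CPM in cre- libraries. It overlapped at the same 2 libraries as Gad1 and Gad2. Slc32a1 had a log2 fold change of -0.46 ± 0.21 (adjusted p = 0.259 in edgeR and 0.163 in DESeq2), and of the fits without 1 library DESeq2 called it only in that without cre- replicate 4 (adjusted p = 0.0432). Noncoding genes on the opposite strand share 302 and 697 of its 5006 exon bases.

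Per kb of exon, the cre- means ran from Dlx1 (103.7 ± 7.03 CPM per kb, SD, n = 4) through Dlx2 (53.8 ± 6.82), Gad1 (30.7 ± 8.61), Gad2 (21.0 ± 2.81), Dlx5 (20.6 ± 3.26), Slc32a1 (19.3 ± 4.19) and Dlx6 (4.12 ± 0.766) to Lhx6 (1.47 ± 0.436). On this scale Dlx1 and Dlx2 were above Gad1 and Gad2, but it divides by the exon bases of all annotated transcripts of a gene. These were 10413 for Gad1 and 2859 for Dlx2. In plain CPM the cre- mean was 319.95 for Gad1 and 153.7 for Dlx2, so the order depends on the length used. Gad2, Dlx5 and Slc32a1 lay within 1 SD of each other. In cre+ libraries the means were 70.2 for Dlx1, 41.4 for Dlx2, 19.8 for Gad1, 17.6 for Dlx5, 14.3 for Gad2, 14.0 for Slc32a1, 2.24 for Dlx6 and 1.81 for Lhx6 CPM per kb, so Dlx5 and Gad2 changed places in the order, by less than the SD of either.

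The libraries varied together over most of the 8 genes, but Lhx6 followed another order. For Lhx6, cre- replicate 2 was the lowest library, while it was the highest for Dlx1, Dlx6, Gad1 and Gad2. Replicate 1 of cre+ was the lowest of all 7 libraries for 6 of 8 genes, and replicate 3 was the highest cre+ library for 8 of 8. Among cre- libraries, replicate 4 was the lowest for 6 of 8. The same cre- replicate 4 had the highest endothelial list mean of its group, 0.33 log2 units above the cre- mean, and the lowest pan-neuronal list mean, 0.36 below it. In cre+ replicates 1, 2 and 3 the endothelial list mean was 1.001, 0.39 and 0.44 above and the pan-neuronal list mean 1.45, 0.54 and 0.39 below the cre- mean. The part of cell make-up in the differences of the 8 genes was not tested.

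**Figure D2:**
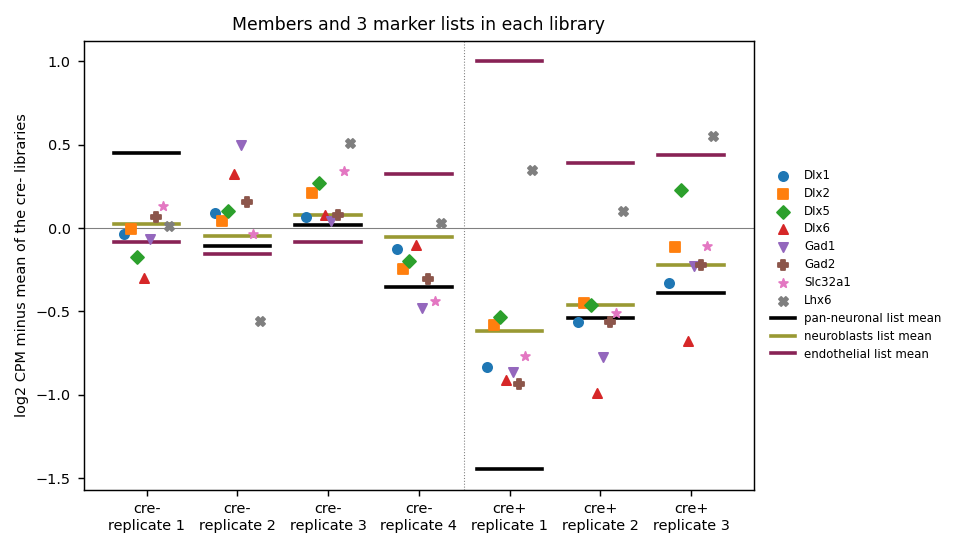
log2 CPM of each of the 8 genes (symbols) in each library, minus the gene's mean over the 4 cre- libraries, with the means of the pan-neuronal, neuroblast and endothelial lists as bars. In cre+ replicate 1 the pan-neuronal list lies at -1.45 and the endothelial list at 1.001, and 7 of the 8 genes lie between -0.94 and -0.54.

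Set against the pan-neuronal list, the groups overlapped for the 7 genes whose CPM was lower in cre+. The mean of that list was itself 0.79 log2 units lower in cre+, which raises every gene by as much on this scale. The log2 CPM of a gene minus the mean of the 15 pan-neuronal genes differed between cre+ and cre- by 0.22 for Dlx1, 0.41 for Dlx2, 0.54 for Dlx5, -0.07 for Dlx6, 0.17 for Gad1, 0.22 for Gad2 and 0.33 for Slc32a1. Lhx6 was 1.12 higher on this scale, without overlap, but the share of all genes without overlap on this scale was not computed. With cre+ replicate 1 left out, these differences were lower, at 0.02 for Dlx1, 0.18 for Dlx2, 0.35 for Dlx5, -0.37 for Dlx6, -0.04 for Gad1, 0.07 for Gad2 and 0.16 for Slc32a1, again with overlap. Lhx6 was then 0.79 higher, without overlap. Relative to a list of 9 neuroblast genes, with a mean itself 0.43 lower in cre+, Dlx1 was 0.14 lower and Lhx6 0.77 higher without overlap. The other 6 genes overlapped, with differences from -0.43 for Dlx6 to 0.18 for Dlx5. Without cre+ replicate 1 these ran from -0.49 for Dlx6, then without overlap, to 0.23 for Dlx5, and the sign turned for Slc32a1 (-0.03 to 0.04). For Dlx1 the highest cre+ value on this scale was 0.376 and the lowest cre- value 0.407. The share of all genes without overlap was not computed on this scale either, with or without cre+ replicate 1.

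With the endothelial list mean as a covariate in edgeR, the log2 fold change was -0.24 ± 0.17 for Dlx1, -0.71 ± 0.34 for Dlx6, -0.01 ± 0.31 for Gad1, -0.0033 ± 0.17 for Gad2 and -0.03 ± 0.19 for Dlx2, while Dlx5 (0.18 ± 0.30) and Slc32a1 (0.12 ± 0.25) turned positive. With the pan-neuronal list mean as a covariate, it was -0.34 ± 0.16 for Dlx1, -0.91 ± 0.30 for Dlx6, -0.36 ± 0.33 for Gad1 and -0.17 ± 0.17 for Gad2. In DESeq2 either covariate left 0 of 8 genes called, with adjusted p of 0.778 and 0.327 for Dlx1, 0.547 and 0.123 for Dlx6 and 0.998 and 0.793 for Gad2 (endothelial and pan-neuronal covariate). Dlx6 thus kept most of its fold change in these fits with a wider error, and Gad2 did not. The covariates differ between the groups, so such a fit cannot fully separate them from genotype.

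**Figure D3:**
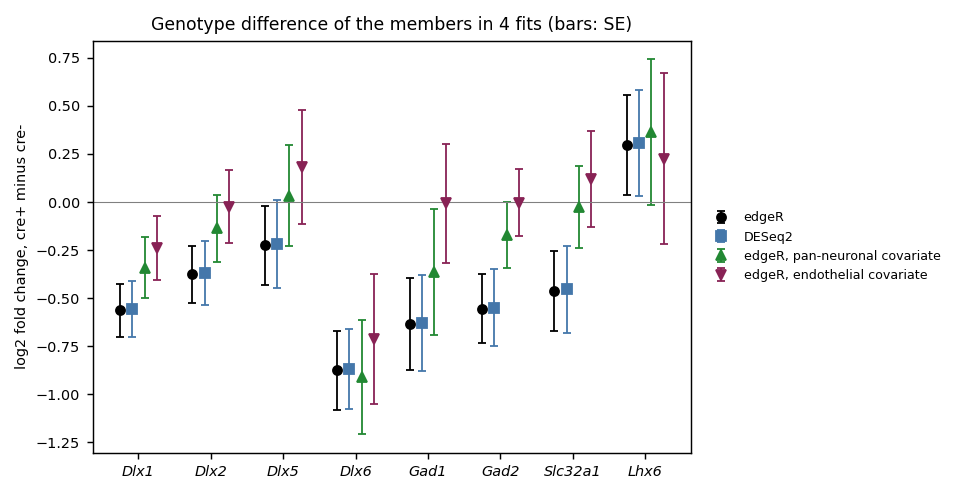
log2 fold change (cre+ minus cre-) with SE of each gene in 4 fits, namely edgeR, DESeq2, and edgeR with the pan-neuronal or the endothelial list mean as a covariate. Dlx6 stays between -0.91 and -0.71 in all 4, whereas Gad1, Gad2 and Dlx2 lie between -0.03 and -0.0033 with the endothelial covariate.

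Of 20 other regulators of forebrain GABA neurons, 15 had a negative log2 fold change (54.0% of all genes did), with a median of -0.44. DESeq2 called 6 lower, among them Sp8, Sp9 and Meis2, and 0 higher. Over all genes that DESeq2 gave an adjusted p, 5.48% were called lower. Without cre+ replicate 1 DESeq2 called 3 lower, with a median of -0.31. Sp8 and Sp9, zinc finger factors of olfactory bulb and cortical interneurons, had log2 fold changes of -0.60 ± 0.09 and -0.60 ± 0.13. Sp8 was at 72.2, 66.1 and 68.9 CPM in cre+ and 104, 116, 101 and 98.1 CPM in cre- libraries, without overlap. Meis2, a homeobox factor of striatal and olfactory neurons, had -0.49 ± 0.12. In edgeR 0 of the 20 passed after adjustment, and 10 were lower and 1 higher at an unadjusted p below 0.05.

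Among 21 markers of interneuron subclasses, 16 had a negative log2 fold change with a median of -0.51, and DESeq2 called 2 lower and 0 higher, beside 5.48% of the genes that DESeq2 gave an adjusted p called lower. These were Chodl (-0.93 ± 0.20), which marks long-range somatostatin neurons, and Cck (-1.70 ± 0.41), a neuropeptide gene that pyramidal neurons express too. Htr3a, an ionotropic serotonin receptor subunit, had -0.47 ± 0.15 and the neuropeptide gene Vip -1.87 ± 0.79, and neither was called. Without cre+ replicate 1 the median was -0.24 and DESeq2 called 3 lower (Vip, Cck and Chodl). For 12 genes of GABA metabolism and transport the median was 0.23, and 0.09 without cre+ replicate 1. In that fit DESeq2 called 0 lower and 1 higher. With all libraries the DESeq2 calls held Gls2 (-1.08 ± 0.38), a glutaminase, as lower and Slc38a3 (0.59 ± 0.17), a glutamine transporter of astrocytes and brain endothelium, as higher. Slc6a13, a GABA transporter of meningeal and vascular cells, had 0.91 ± 0.32 and was not called. In the list for midbrain, hindbrain and cerebellar GABA neurons DESeq2 called 0 of 11 genes tested, 7 of the 11 had a negative log2 fold change, and Ptf1a was at 0 in each library. Their median was -0.49, and -0.04 without cre+ replicate 1.

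**Figure D4:**
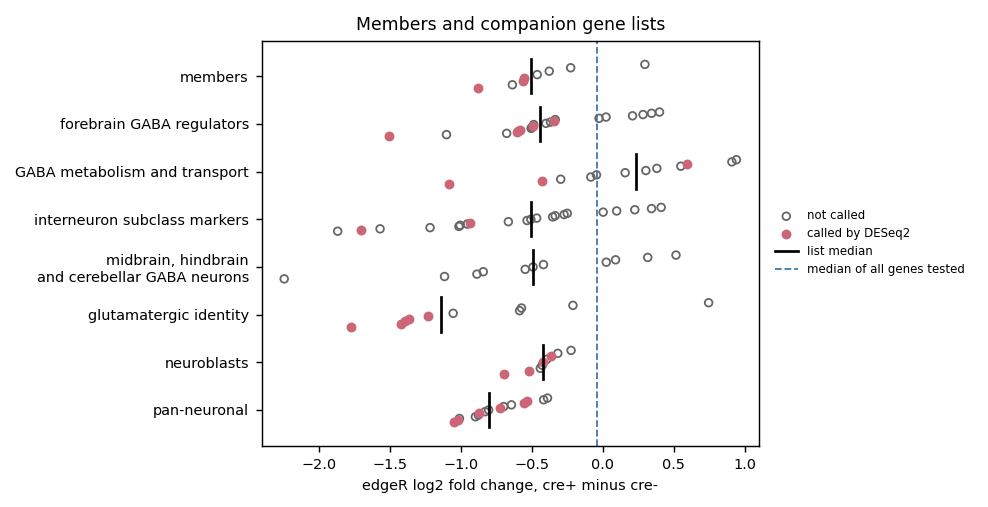
edgeR log2 fold change (cre+ minus cre-) of each tested gene of the 8 inhibitory neuron identity genes (top row, members) and of 7 companion lists, with filled points for genes that DESeq2 called, black bars for list medians and a dashed line for the median of all genes tested. The medians of the GABA regulators, the subclass markers and the midbrain, hindbrain and cerebellar list (-0.44, -0.51 and -0.49) lie near that of the 8 genes (-0.51), that of the glutamatergic list lies lower (-1.14) and that of GABA metabolism and transport higher (0.23).

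Lists of other neurons were called lower in part as well. Of 10 genes of glutamatergic identity DESeq2 called 5 lower (Slc17a7, Neurod2, Neurod6, Tbr1 and Fezf2), with a median log2 fold change of -1.14, and of 15 pan-neuronal genes it called 6 lower, with a median of -0.80. Of 9 neuroblast genes it called 4 lower (Dcx, Sox11, Sox4 and Igfbpl1), with a median of -0.42. Over all genes that DESeq2 gave an adjusted p, 5.48% were called lower. These lists were nearer to 0 without cre+ replicate 1, where DESeq2 called 2 of the 10 glutamatergic genes (Neurod2 and Neurod6, list median -0.76), 1 of the 15 pan-neuronal genes (Nefh, -0.51) and 2 of the 9 neuroblast genes (Sox4 and Igfbpl1, -0.30). Over all genes DESeq2 called 512 lower in that fit. The mean of the glutamatergic list was 2.03 log2 units below its cre- mean in cre+ replicate 1, and 0.65 and 0.40 below it in cre+ replicates 2 and 3. Whether the inhibitory and glutamatergic lists differed was not tested. The ratio of Gad1 to Slc17a7, the vesicular glutamate transporter of cortical excitatory neurons, was 2.15, 0.710 and 0.761 in cre+ and 0.358, 0.827, 0.752 and 0.641 in cre- libraries in CPM per kb. Replicate 1 of cre+ stood above the rest, and the other 2 cre+ libraries lay within the cre- range.

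The genes whose log2 CPM followed the mean of the 8 genes' z-scores most closely over the 7 libraries were Ptov1 (Pearson r = 0.997), Slc27a3 (0.988), Ttyh3 (0.984), Pcbp4 (0.981) and Arl4c (0.980), out of 15977 genes with a mean of at least 1 CPM. These r are a description over 7 libraries that differed in total counts and in the levels of endothelial and pan-neuronal genes. Why these genes followed each other was not tested. None of the 5 was called by DESeq2, and their log2 fold changes ran from -0.30 for Slc27a3 to -0.52 for Arl4c.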

How the data were processed

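RNA was isolated from neuron-enriched brain cells of 3 cre+ and 4 cre- littermate mice and sequenced as poly(A) libraries in paired reads. The authors used fastp for trimming, FastQC, STAR against GRCm39, SAMtools and StringTie (the study's methods and the submitters' notes) and deposited gene counts. The sources used here name no versions, annotation or strand setting. The deposited normalized tables were not used. Each file held 46382 rows, and 49 rows repeating 46 symbols with identical counts were dropped. Groups came from the sample titles. Counts were tested with edgeR 4.0.16 (TMM factors, filterByExpr, quasi-likelihood F-test) in R 4.3.3, with Benjamini-Hochberg adjustment over 21542 genes. DESeq2 1.42.0 and limma-voom 3.58.1 were alternatives. DESeq2 fitted 29539 genes, of which 16345 received an adjusted p. The threshold was 0.05 and log2 CPM used a prior count of 2. P-values set the difference between the groups against the spread between libraries within them. That spread holds differences between mice and in cell isolation, which cannot be told apart. The scripts were tested on simulated data. Exon lengths (merged exons of all annotated transcripts of a gene) and overlaps came from GENCODE on GRCm39. Named genes were the 8 members, up to 4 genes with the smallest edgeR p in each list described, Dlx1as, Dlx6os1 and the 5 most alike genes. Some genes of these lists are not reported here. Others, as Tbr1 and Ptf1a, were named after their values were seen. The members and lists were chosen with earlier results of these data known.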

Additional observations from a re-analysis of the deposited data

How the results depend on the processing

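Of 136 fold changes of the 8 genes under 17 alternatives to the edgeR fit, 130 kept their direction and their side of the threshold. DESeq2 put Dlx1, Dlx6 and Gad2 past the threshold. Each other alternative called 0 of the 8 genes, as the edgeR fit did, so the tally does not measure whether the sizes held. With the endothelial covariate, fold changes tallied as kept went from -0.64 to -0.01 for Gad1, -0.56 to -0.0033 for Gad2 and -0.38 to -0.03 for Dlx2. Over all genes edgeR called 0 and DESeq2 called 1990 (895 lower and 1095 higher in cre+), while limma-voom, the other scalings and the other filters called 0. At an unadjusted p below 0.05 edgeR counted 4305. The number of the 8 genes called lower was 0 in edgeR and 3 in DESeq2. Leaving out 1 library at a time, edgeR called 0 to 5 genes (5 without cre+ replicate 1) and DESeq2 called 755 to 2258, being 755 when cre- replicate 2 was left out, 919 for cre- replicate 3, 1103 for cre+ replicate 1 and 1265 for cre+ replicate 2. The 8 genes gave 2 to 5 DESeq2 calls in these fits, reaching 5 when either cre+ replicate 3 or cre- replicate 4 was left out. With the endothelial list mean as a covariate DESeq2 called 199 genes, and with the pan-neuronal list mean 498, and 0 of the 8 genes in both. The log2 fold change turned positive for Dlx5 with the endothelial (0.18 in edgeR and 0.18 in DESeq2) and pan-neuronal (0.034 and 0.031) covariate and for Slc32a1 with the endothelial covariate (0.12 and 0.11). The cause was not tested. The DESeq2 fits other than the plain one, and the list and relative values without cre+ replicate 1, were added after the data were seen.

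Replicate numbers recur in both groups, but same-numbered libraries did not deviate together (correlations of their deviations from the group means -0.03, -0.004 and 0.09), and no cre+ library but replicate 3 correlated best with its own number. With a replicate block edgeR called 0 genes and 0 of the 8, and DESeq2 called 1543 genes and 5 of the 8 (Dlx1, Dlx6, Gad1, Gad2 and Slc32a1), where cre- replicate 4 has no partner.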
